A study of Mus musculus with 8 samples.

Results

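Early response genes are transcribed within minutes of a stimulus, mostly from promoters that are already open, and their messages are short-lived. The 10 genes described here are Egr1, Nr4a1, Myc, Klf4, Klf6, Klf10, Ier2, Ier3, Ier5 and Zfp36. They were chosen by symbol, as the rows of the deposited gene table whose Ensembl identifier carries one of these names in the GENCODE mouse annotation (build GRCm38), and all 10 were found among the 23006 identifiers of the table. All 10 also passed the filter on low counts that left 16876 genes for testing. The AP-1 subunits, the other classical group of early genes, are not members and enter only as a list for comparison.

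The study sequenced 8 libraries of mouse liver RNA, 2 for each of 4 groups, to ask how SLIT2, a secreted ligand of ROBO receptors, alters the liver's response to a toxic dose of acetaminophen (APAP). The SLIT2+APAP group (libraries 1 and 2) received both agents. The APAP group (libraries 3 and 4) received saline and APAP at 400 mg/kg. The SLIT2 group (libraries 1 and 2) received SLIT2 into the peritoneum, 2 µg per mouse for 3 days, and no APAP. The control group (libraries 1 and 2) received phosphate-buffered saline only. All mice are labelled WT, and livers were taken 24 h after APAP. The sources used here give no strain, sex or age. They also do not tell whether 2 libraries of one group are 2 animals, and the p-values then cover only the spread between these samples, possibly a technical one.

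Levels are counts per 1000000 counts (CPM) on TMM-scaled library sizes, where TMM is edgeR's scaling between libraries. Total counts ran from 60.8 to 101 M per library, M standing for 1000000. Before the results, 3 features of the libraries have to be known. The SLIT2 libraries stand apart, with 60.2% and 69.0% of counts from the 13 mitochondrially encoded genes, against 16% and 17.3% in control libraries, and with summed hepatocyte markers of 14800 and 8290 CPM, against 53500 to 74700 CPM in control libraries. That share was 25.1% and 30.3% in SLIT2+APAP libraries, against 14.9% and 13.4% in APAP libraries. The libraries APAP 3 and APAP 4 differed from each other more than those of any other group, with a median absolute log2 difference of 0.385 over genes, against 0.151 in SLIT2+APAP, 0.27 in SLIT2 and 0.141 in control. Skeletal muscle markers summed to 783 and 85.5 CPM in the control libraries, against at most 1.4 CPM in any other library.

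As background, growth factors and stress activate the kinase ERK, which phosphorylates partners of the serum response factor SRF. SRF binds CArG boxes, and together with ETS factors it switches on EGR1 and other early genes. EGR1, the KLF proteins, MYC and NR4A1 are transcription factors that act on later genes. ZFP36 (tristetraprolin) binds AU-rich messages and speeds their decay, among them messages of early genes and cytokines. In liver, early genes are known for their brief induction after partial hepatectomy, toxins and cytokines.

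Promoter sequence of 6 of the 10 genes (Ier3, Ier5, Klf4, Klf6, Nr4a1 and Zfp36) was in the RefSeq table used here (build GRCm38.p6), and the 250 bases before each start were searched on both strands. The RefSeq starts used for Ier3, Klf6, Nr4a1 and Zfp36 lie inside the GENCODE gene spans given below. The windows of these genes are therefore not those before the outermost annotated start. An EGR site (GCGNGGGCG) was found before 3 of these 6 genes, Klf4, Nr4a1 and Zfp36, and before 4.7% of all 32851 promoters of the same length. These 3 promoters are printed because they hold that site and belong to members whose levels are described next. Each runs 5′ to 3′ along the strand of its gene, and capitals mark matches to the EGR site, the CArG box, the ETS site (CCGGAA) and the E-box (CACGTG).
Zfp36, chr7:28379229-28379478, minus strand: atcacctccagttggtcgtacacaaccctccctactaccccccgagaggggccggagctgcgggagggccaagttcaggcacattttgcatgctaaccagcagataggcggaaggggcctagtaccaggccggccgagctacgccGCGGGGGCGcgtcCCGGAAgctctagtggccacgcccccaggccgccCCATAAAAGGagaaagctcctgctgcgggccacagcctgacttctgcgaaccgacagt
Nr4a1, chr15:101266596-101266845, plus strand: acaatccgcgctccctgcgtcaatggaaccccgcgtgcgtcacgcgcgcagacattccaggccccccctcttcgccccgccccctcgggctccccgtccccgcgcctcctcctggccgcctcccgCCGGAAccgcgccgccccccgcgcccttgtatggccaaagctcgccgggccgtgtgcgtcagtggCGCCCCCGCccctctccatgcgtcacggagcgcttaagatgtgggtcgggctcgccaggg
Klf4, chr4:55532476-55532725, minus strand: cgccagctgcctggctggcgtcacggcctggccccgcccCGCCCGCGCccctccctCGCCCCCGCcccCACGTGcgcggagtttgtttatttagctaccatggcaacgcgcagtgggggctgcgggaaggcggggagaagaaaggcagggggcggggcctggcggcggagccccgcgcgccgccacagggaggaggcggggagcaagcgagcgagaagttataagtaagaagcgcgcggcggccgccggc

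Zfp36 was the only one of the 6 with a CArG box, which 1.47% of promoters hold, and its match lies 58 to 49 bases before the start. Its EGR site lies 105 to 97 bases and its ETS site 92 to 87 bases before the start, so all 3 motifs lie between 105 and 49 bases before it. The ETS site was found in 2 of 6 genes (Nr4a1 and Zfp36) against 12% of promoters, and the E-box, which MYC and its partner MAX bind, in 2 of 6 (Klf4 and Klf6) against 6.02%. An NF-kB site was found in Ier3 alone, against 3.9% of promoters. A GC box (GGGCGG), bound by SP1 and KLF proteins, was in 6 of 6 against 32.7%, and it overlaps the EGR sites of Klf4 and Nr4a1, the CArG box of Zfp36 and the NF-kB site of Ier3. None of the 6 held the cAMP response element (TGACGTCA, 1.55% of promoters), the AP-1 site (TGANTCA, 6.75%), the NR4A site (AAAGGTCA, 1.34%) or a TATA box written TATAAA (12.4%). These are matches of letters in one window and say nothing of occupancy.

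Egr1 (ENSMUSG00000038418, chr18:34859823-34864984, plus strand) encodes a zinc finger activator that is induced by ERK and SRF. Its level was 2.39 and 7.57 CPM in SLIT2+APAP libraries, 635 and 170.1 CPM in APAP libraries, 7.70 and 7.24 CPM in SLIT2 libraries and 3.79 and 2.81 CPM in control libraries. Both APAP libraries lay far above the 6 others, and the SLIT2+APAP pair spanned the control pair. In raw reads these were 191 and 740 counts in SLIT2+APAP, 50891 and 17513 in APAP, 522 and 400 in SLIT2, and 318 and 267 in control. Egr1 took 40.7% and 30.1% of the counts of the 10 genes in the APAP libraries, against 3.72% and 2.32% in the control libraries.

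Nr4a1 (ENSMUSG00000023034, chr15:101254269-101274795, plus strand) encodes NUR77, an orphan nuclear receptor. Nr4a1 stood at 0.325 and 4.05 CPM in SLIT2+APAP libraries, 14.9 and 13.7 CPM in APAP libraries, 0.634 and 0.797 CPM in SLIT2 libraries and 1.41 and 0.662 CPM in control libraries. It was the member on which the APAP libraries came closest to each other, while the SLIT2+APAP libraries differed 12.5-fold and lay on either side of control. Myc (ENSMUSG00000022346, chr15:61985391-61990374, plus strand) encodes a helix-loop-helix factor that drives ribosome production and growth. Myc stood at 0.713 and 1.21 CPM in SLIT2+APAP libraries, 32.8 and 4.84 CPM in APAP libraries, 0.442 and 0.742 CPM in SLIT2 libraries and 1.44 and 0.683 CPM in control libraries. Both APAP libraries were above all others, with 2629 and 498 counts, and the other 6 libraries held 30 to 121 counts each.

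The 3 Krüppel-like factors bind GC-rich sites. Klf4 (ENSMUSG00000003032, chr4:55527143-55532466, minus strand), a factor of epithelial and endothelial differentiation, stood at 1.03 and 1.33 CPM in SLIT2+APAP, 13.8 and 0.777 CPM in APAP, 3.58 and 4.18 CPM in SLIT2, and 1.43 and 0.873 CPM in control libraries. One APAP library was the highest of the 8 and the other the lowest, and both SLIT2 libraries were above control. Klf6 (ENSMUSG00000000078, chr13:5861482-5870394, plus strand), known in liver from its activity in stellate cells, stood at 11.6 and 15.1 CPM in SLIT2+APAP, 139 and 18.6 CPM in APAP, 9.30 and 9.42 CPM in SLIT2, and 7.12 and 7.63 CPM in control libraries. Klf6 was the one member on which every group stood clear of every other, in the order APAP, SLIT2+APAP, SLIT2 and control. Klf10 (ENSMUSG00000037465, chr15:38291463-38300706, minus strand), a factor induced by TGF beta, stood at 6.75 and 11.5 CPM in SLIT2+APAP, 46.0 and 8.15 CPM in APAP, 12.5 and 18.1 CPM in SLIT2, and 15.4 and 10.8 CPM in control libraries. Klf10 was high in APAP 3 only, and APAP 4 lay below both control libraries.

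The 3 Ier genes were named for their immediate early response. Ier2 (ENSMUSG00000053560, chr8:84661331-84662852, minus strand), a nuclear protein gene, stood at 21.5 and 29.0 CPM in SLIT2+APAP, 246 and 145 CPM in APAP, 27.9 and 35.0 CPM in SLIT2, and 23.1 and 20.2 CPM in control libraries. Both APAP libraries were far above every other library, and the SLIT2 pair lay above the control pair. Ier3 (ENSMUSG00000003541, chr17:35821684-35822923, plus strand), which encodes a regulator of cell survival, was scarce, with 0.30 and 1.17 CPM in SLIT2+APAP, 4.85 and 1.90 CPM in APAP, 0.929 and 0.217 CPM in SLIT2, and 0.405 and 0.368 CPM in control libraries. The APAP pair was above all other libraries, and the SLIT2 and SLIT2+APAP pairs each had 1 library below both controls. Ier5 (ENSMUSG00000056708, chr1:155096361-155099636, minus strand), also known from heat shock and irradiation, stood at 2.64 and 2.79 CPM in SLIT2+APAP, 31.6 and 3.38 CPM in APAP, 1.83 and 1.79 CPM in SLIT2, and 2.41 and 2.93 CPM in control libraries. Ier5 was high in APAP 3, just above control in APAP 4 and lowest in the SLIT2 pair.

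Zfp36 (ENSMUSG00000044786, chr7:28376784-28380253, minus strand) stood at 70.1 and 63.5 CPM in SLIT2+APAP, 396 and 199.8 CPM in APAP, 63.2 and 84.0 CPM in SLIT2, and 45.4 and 74.1 CPM in control libraries. The APAP pair was above all other libraries, and the 3 other groups overlapped. Zfp36 overlaps the antisense gene Gm44710, and since no source used here gives the strand setting of the counting, its reads cannot be told apart from those of that gene with certainty. It took 44.5% and 61.2% of the members' counts in control libraries, the largest share in both.

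**Figure D1:**
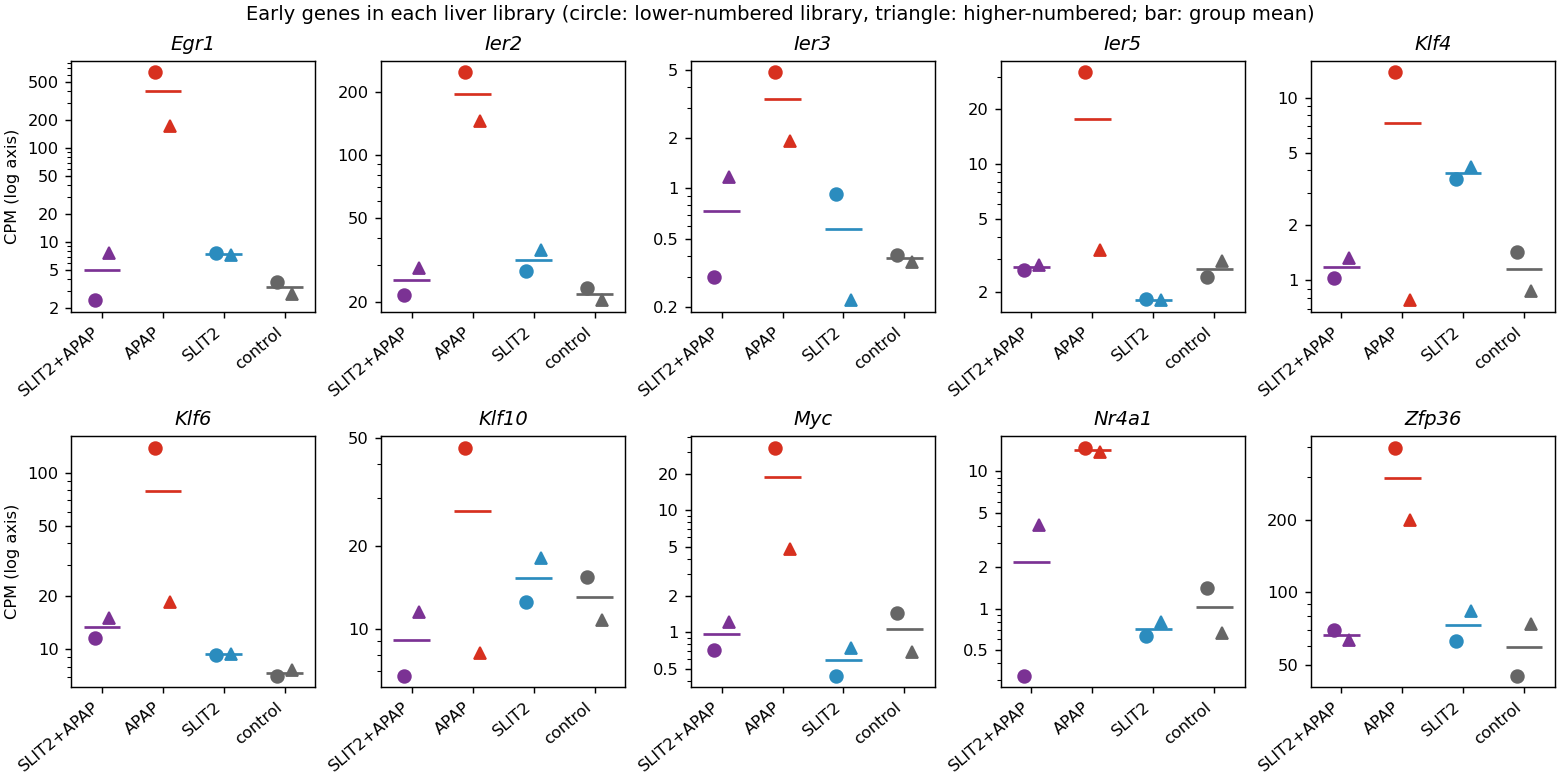
Level of each of the 10 genes in each library, in CPM on a log axis, 1 panel per gene. Circles are the lower-numbered and triangles the higher-numbered library of a group, and bars are group means. Both APAP points lie above the control points in 8 panels, and in those of Klf4 and Klf10 the triangle of APAP (library 4) lies below both control points.

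Per kilobase of annotated exon, the members spanned a wide range of mean levels, and the order differed between groups. In APAP libraries Ier2 averaged 129 CPM per kb, Egr1 89.7 and Zfp36 85.9, and the library ranges of these 3 overlapped. Klf6 followed at 18.0 CPM per kb, and Klf4 was lowest at 2.38. In control libraries Zfp36 averaged 17.2 CPM per kb and Ier2 14.3, with overlapping ranges, while Egr1 stood at rank 6 with 0.736. The members' counts together made up 0.147% and 0.0588% of all counts in APAP libraries, against 0.00896% and 0.0115% in control libraries.

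The comparison of APAP with control shows these genes 24 h after the toxic dose without SLIT2. Egr1, Ier2 and Zfp36 rose. Egr1 averaged 402 ± 329 CPM in APAP and 3.30 ± 0.695 CPM in control (SD, n = 2 each), a log2 fold change of 6.93 ± 0.83 (SE) with an edgeR quasi-likelihood adjusted p = 0.03274. Ier2 averaged 196 ± 71.8 CPM in APAP and 21.7 ± 2.05 CPM in control (3.17 ± 0.32 on the log2 scale, edgeR adjusted p = 0.0235). Zfp36 averaged 298 ± 139 CPM in APAP and 59.8 ± 20.3 CPM in control (2.32 ± 0.39, edgeR adjusted p = 0.04825). So 3 of the 10 members were called higher at an adjusted p under 0.05, and 0 lower, where 0.332% of all genes tested were called higher and 0.456% lower.

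The other 7 members had positive log2 fold changes that missed this threshold. Myc came next, at 4.15 ± 0.88 with an edgeR adjusted p of 0.06522, followed by Klf6 at 3.42 ± 0.77 (adjusted p = 0.0698) and Nr4a1 at 3.79 ± 0.94 (adjusted p = 0.07897). Ier3 stood at 3.12 ± 0.82, Ier5 at 2.71 ± 0.83 and Klf4 at 2.66 ± 1.03. Klf10 had the smallest difference, 1.05 ± 0.68 (adjusted p = 0.3737). The median over the members was 3.15, beside 0.05 over all genes tested. The APAP and control libraries did not overlap for 8 members, all but Klf4 and Klf10, and both APAP libraries were the higher ones there, as for 26.9% of genes tested.

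Which members pass the threshold in APAP against control differs with the libraries in the fit. DESeq2 called 9 members, all but Klf10, where it called 6.46% of genes higher. Without the SLIT2 libraries, or with only the 4 libraries compared, edgeR called 0 members, with 8 at an unadjusted p under 0.05 in each. Over all genes these edgeR fits also called 0, with 3908 and 2654 genes at an unadjusted p under 0.05. The loss is therefore not particular to the members. In the fits that leave out 1 library the members called differed, and some of these fits called no member. The number of all genes called differed in these fits too, and the last paragraph gives both ranges. For the called members, the log2 fold change ran from 5.69 to 7.57 (Egr1), 2.74 to 3.49 (Ier2) and 1.75 to 2.71 (Zfp36).

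Most members differed more between the 2 APAP libraries than within the other groups, except Nr4a1 (12.5-fold within SLIT2+APAP) and Ier3 (4.28-fold within SLIT2 and 3.88-fold within SLIT2+APAP). All 10 were higher in APAP 3, as were 51.6% of genes tested, and the median log2 ratio of APAP 3 to APAP 4 on log2(CPM + 0.5) was 2.16 for the members and 0.02 for all genes, of which the middle 90% lay between -1.17 and 1.38. Nr4a1 differed only 1.08-fold between them, Ier2 1.70-fold, Zfp36 1.98-fold and Ier3 2.55-fold. Egr1 differed 3.73-fold, Klf10 5.64-fold, Myc 6.78-fold, Klf6 7.5-fold, Ier5 9.35-fold and Klf4 17.7-fold. Set against the control mean, APAP 4 was 5.69 higher on the log2 scale for Egr1 and 3.73 for Nr4a1 but 0.34 for Ier5, -0.57 for Klf4 and -0.68 for Klf10, whereas APAP 3 was 7.59 higher for Egr1 and 3.85 for Nr4a1, 3.57 for Ier5, 3.58 for Klf4 and 1.81 for Klf10. The fitted log2 fold changes of Klf4 and Klf10 against control were -0.56 and -0.68 without APAP 3.

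**Figure D2:**
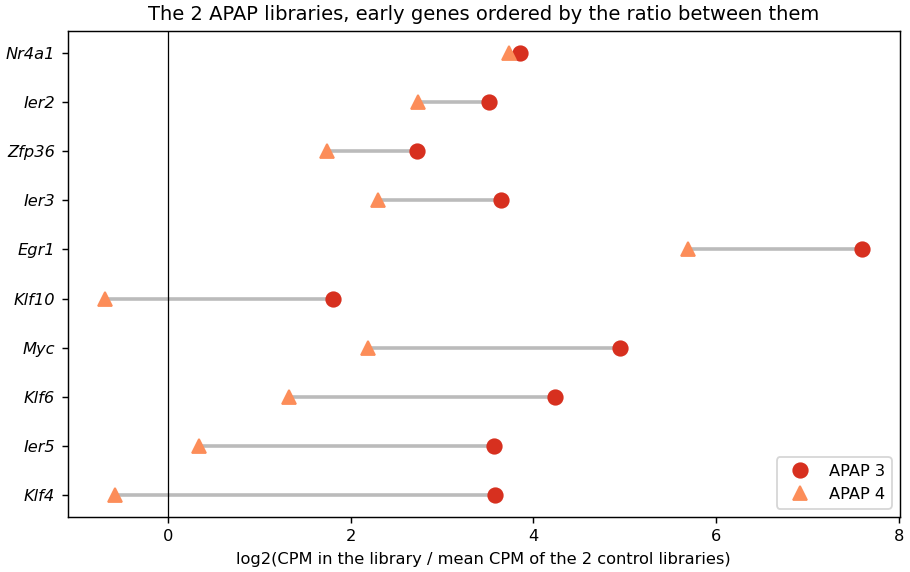
Log2 ratio of the CPM in each APAP library to the mean CPM of the control libraries (horizontal axis), for each member, ordered by the ratio between the 2 libraries. Circles are APAP 3, triangles APAP 4, and each line joins the pair of 1 gene. The points of Nr4a1 nearly coincide, and Klf4 and Klf10 are above 0 in APAP 3 and below 0 in APAP 4.

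Markers of other cells also differed between these libraries. The 7 neutrophil markers summed to 23.0 CPM in APAP 3 and 8.65 CPM in APAP 4, against 3.55 and 4.64 CPM in control libraries, where Ly6g was at 0. The monocyte and macrophage markers summed to 52.4 and 31.8 CPM in APAP 3 and 4, against 27.6 and 34.6 CPM in control, and the cholangiocyte markers to 47.0 and 13.4 CPM, against 8.22 and 9.23 CPM. Of these, 0 of 6 tested neutrophil markers, 1 of 6 monocyte and macrophage markers and 0 of 4 cholangiocyte markers were called higher. Their part in the members' levels was not tested, and in whole liver fewer cells of a type and less RNA per cell cannot be told apart.

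The comparison of SLIT2+APAP with APAP shows what differed with SLIT2 under the toxic dose, and it uses the same 2 APAP libraries. Egr1, Ier2, Myc and Zfp36 fell. Egr1 averaged 4.98 ± 3.66 CPM in SLIT2+APAP and 402 ± 329 CPM in APAP (SD, n = 2 each), a log2 fold change of -6.33 ± 0.81 with an edgeR adjusted p = 0.006407. Ier2 averaged 25.3 ± 5.30 CPM in SLIT2+APAP and 196 ± 71.8 CPM in APAP (-2.95 ± 0.32, edgeR adjusted p = 0.004758). Zfp36 averaged 66.8 ± 4.64 CPM in SLIT2+APAP and 298 ± 139 CPM in APAP (-2.16 ± 0.38, edgeR adjusted p = 0.01442). Myc averaged 0.960 ± 0.349 CPM in SLIT2+APAP and 18.8 ± 19.8 CPM in APAP (-4.28 ± 0.88, edgeR adjusted p = 0.02137). So 4 of 10 members were called lower, where 7.64% of all genes tested were called lower and 6.29% higher.

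The other 6 members were lower in the fit without passing. Klf6 came nearest, at -2.57 ± 0.75 (edgeR adjusted p = 0.05723), before Ier5 at -2.68 ± 0.83 (adjusted p = 0.06606), Nr4a1 at -2.69 ± 0.88 (adjusted p = 0.07786) and Ier3 at -2.18 ± 0.77 (adjusted p = 0.09431). Klf4 stood at -2.62 ± 1.03 and Klf10 at -1.57 ± 0.69, with adjusted p-values of 0.1202 and 0.1548. The median over the members was -2.65, beside -0.06 over all genes tested. Both SLIT2+APAP libraries were below both APAP libraries for 8 members, all but Klf4 and Klf10, as for 29.4% of genes tested.

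DESeq2 called 9 members lower, all but Klf10, where it called 12.4% of genes lower. With only the 4 libraries compared, edgeR called 0 members, with 7 at an unadjusted p under 0.05. Over all genes that edgeR fit called 1, with 3915 genes at an unadjusted p under 0.05. Fewer members, and fewer of all genes, were called without either SLIT2+APAP library, and more of both without APAP 4. Over the fits that leave out 1 library, the log2 fold change ran from -7.38 to -5.1 for Egr1 and -3.27 to -2.52 for Ier2. It ran from -5.07 to -2.33 for Myc and -2.55 to -1.59 for Zfp36. Without APAP 3 the log2 fold changes of Klf4 and Klf10 were 0.60 and 0.16. The mitochondrial share of counts and some summed markers differed between these groups too. The monocyte and macrophage markers summed to 21.7 and 20.1 CPM in SLIT2+APAP, against 52.4 and 31.8 CPM in APAP. The cholangiocyte markers summed to 7.53 and 7.78 CPM in SLIT2+APAP, against 47.0 and 13.4 CPM in APAP. The neutrophil markers summed to 7.96 and 9.66 CPM in SLIT2+APAP (Ly6g at 0) and 23.0 and 8.65 CPM in APAP, so their sums overlapped. Of the markers tested, 2 of 6 neutrophil markers were called higher and 1 lower, 1 of 6 monocyte and macrophage markers lower and 2 of 4 cholangiocyte markers lower. Their part in the result was not tested.

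**Figure D3:**
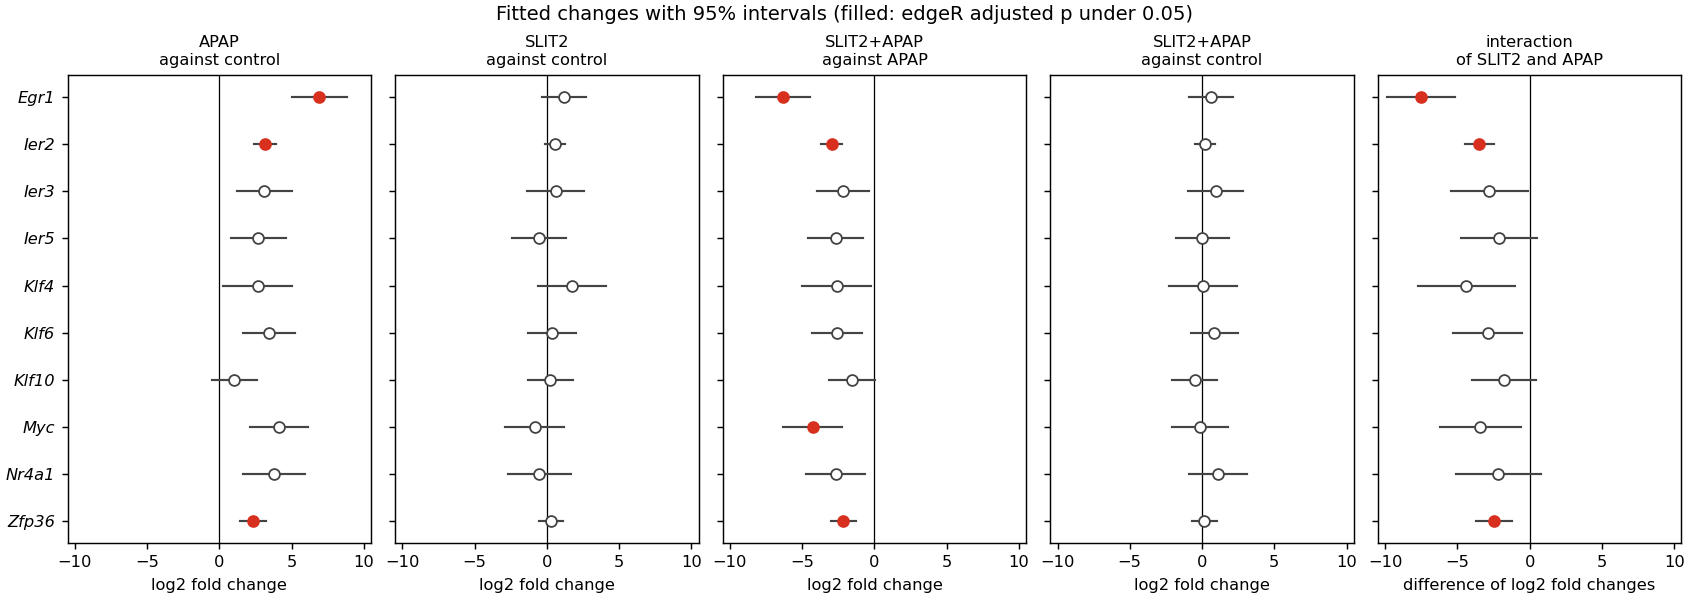
Log2 fold change of each member with its 95% interval from the edgeR fit in the 4 pairwise comparisons and the interaction. Filled points passed an adjusted p under 0.05. The members lie above 0 in APAP against control, below 0 in SLIT2+APAP against APAP and around 0 in SLIT2+APAP against control.

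SLIT2+APAP against control sets the livers that received both agents beside untreated ones. Neither edgeR nor DESeq2 called a member, and 0 had an unadjusted p under 0.05 with either tool, where edgeR called 0.717% of genes higher and 1.45% lower and DESeq2 3.67% and 6.04%. The log2 fold changes ran from -0.52 ± 0.67 for Klf10 to 1.10 ± 0.88 for Nr4a1, with a median of 0.19. The 95% intervals were wide. That of Ier2 ran from -0.47 to 0.91, that of Zfp36 from -0.69 to 1.01 and that of Egr1 from -0.92 to 2.12, so differences of that size remain possible. Klf6 was the only member whose libraries did not overlap, at 13.3 ± 2.44 CPM in SLIT2+APAP and 7.37 ± 0.366 CPM in control (0.86 ± 0.71, adjusted p = 0.5591), as for 35.2% of genes on the higher side and 32.3% on the lower side. With only the 4 libraries compared, edgeR called Klf6 higher (0.86, adjusted p = 0.009912), in a fit that called 1973 genes higher and 2273 lower. Its log2 fold change was 0.85 without APAP 3, and likewise without APAP 4.

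SLIT2 against control asks what SLIT2 did without APAP. No member was called by edgeR or DESeq2, with 0 members at an unadjusted p under 0.05 in edgeR and 2 in DESeq2, although edgeR called 27.3% of genes tested higher and 27.6% lower, and DESeq2 25.5% and 26.9%. Klf4 had the largest difference, 3.88 ± 0.424 CPM in SLIT2 and 1.15 ± 0.394 CPM in control (1.76 ± 1.01 on the log2 scale, 95% interval -0.58 to 4.10, adjusted p = 0.1751). Egr1 averaged 7.47 ± 0.321 CPM in SLIT2 and 3.30 ± 0.695 CPM in control (1.18 ± 0.66, adjusted p = 0.1652), and Ier2 31.5 ± 5.0 CPM in SLIT2 and 21.7 ± 2.05 CPM in control (0.54 ± 0.30, adjusted p = 0.1602). Ier5 averaged 1.81 ± 0.0254 CPM in SLIT2 and 2.67 ± 0.372 CPM in control (-0.56 ± 0.81, adjusted p = 0.5838). Both SLIT2 libraries were above both control libraries for 4 members (Egr1, Ier2, Klf4 and Klf6) and below them for 1 (Ier5), as for 41.2% and 41.4% of genes tested.

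With only the 4 SLIT2 and control libraries, whose spread is smaller than that of the APAP pair, edgeR called Egr1 (1.22, adjusted p = 0.00381), Ier2 (0.58, adjusted p = 0.03603) and Klf4 (1.79, adjusted p = 0.00324) higher. Over all genes, that fit called 5399 higher and 5171 lower. Without APAP 3, and likewise without APAP 4, the log2 fold change was 1.72 for Klf4 and -0.6 for Ier5. These libraries also differed in mitochondrial share and in hepatocyte markers as given above, and the neutrophil markers summed to 37.6 and 33.8 CPM in SLIT2, with Ly6g at 0, against 3.55 and 4.64 CPM in control, and the part of these differences in the members' values was not tested.

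The interaction asks whether the effect of SLIT2 with APAP differed from its effect without APAP. Egr1 (-7.51 ± 1.02, edgeR adjusted p = 0.004255), Ier2 (-3.49 ± 0.43, adjusted p = 0.003619) and Zfp36 (-2.46 ± 0.53, adjusted p = 0.0147) passed, each with a more negative SLIT2 effect in APAP-treated livers. That is 3 of 10 members, where 13.3% of genes tested were called in this direction and 15.5% in the other. All 10 estimates were negative, with a median of -2.84 beside -0.09 over all genes, and Klf4 came next at -4.37 ± 1.44 (adjusted p = 0.05426). DESeq2 called 7 members, adding Ier3, Klf4, Klf6 and Myc, where it called 15.7% of genes in this direction. Over the fits that leave out 1 library, Egr1 ran from -8.52 to -6.24, Ier2 from -3.77 to -3.03 and Zfp36 from -2.85 to -1.85. Zfp36 lost its call in some of these fits. More members, and more of all genes, were called without APAP 4. The estimate of Ier5 was -2.12 with all libraries and 0.28 without APAP 3.

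Across the 8 libraries the members varied together. Over the 45 pairs of members, Pearson's r of log2(CPM + 0.5) had a median of 0.85 and ran from 0.30 (Klf4 with Nr4a1) to 1.0 (Egr1 with Ier2). These are descriptions, since the libraries share their groups and APAP 3 lies far out on every member. The mean standardised level of the members was 2.03 in APAP 3 and 0.49 in APAP 4, and between -0.67 and -0.18 in the other 6 libraries.

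Among 9716 genes with a mean of at least 5 CPM in the group where they were highest, the 8 whose level followed that mean most closely were Ppp1r15a (r = 0.991), Csrnp1 (0.990), Trib1 (0.989), Dop1a (0.987), Sbno2 (0.987), Slc41a1 (0.986), Frmd6 (0.985) and Irs2 (0.984), each r over 8 libraries. Ppp1r15a, which encodes the GADD34 subunit of a phosphatase that reverses the integrated stress response, stood at 6.70 and 7.99 CPM in SLIT2+APAP, 60.1 and 13.9 in APAP, 7.67 and 8.47 in SLIT2, and 6.07 and 5.39 in control libraries. Csrnp1, itself a nuclear early gene, stood at 9.14 and 11.4 CPM in SLIT2+APAP, 131 and 21.7 in APAP, 11.1 and 9.78 in SLIT2, and 7.99 and 7.01 in control libraries. Irs2, an insulin receptor substrate, stood at 0.688 and 1.05 CPM in SLIT2+APAP, 12.9 and 3.42 in APAP, 1.16 and 0.688 in SLIT2, and 0.751 and 0.799 in control libraries. In all 3, APAP 3 was highest, APAP 4 next, and the other libraries lay close together. Their choice by likeness to the members' mean largely fixed this pattern in advance, so it is a description only. Irs2 reached a mean of 5 CPM in the APAP group alone.

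**Figure D4:**
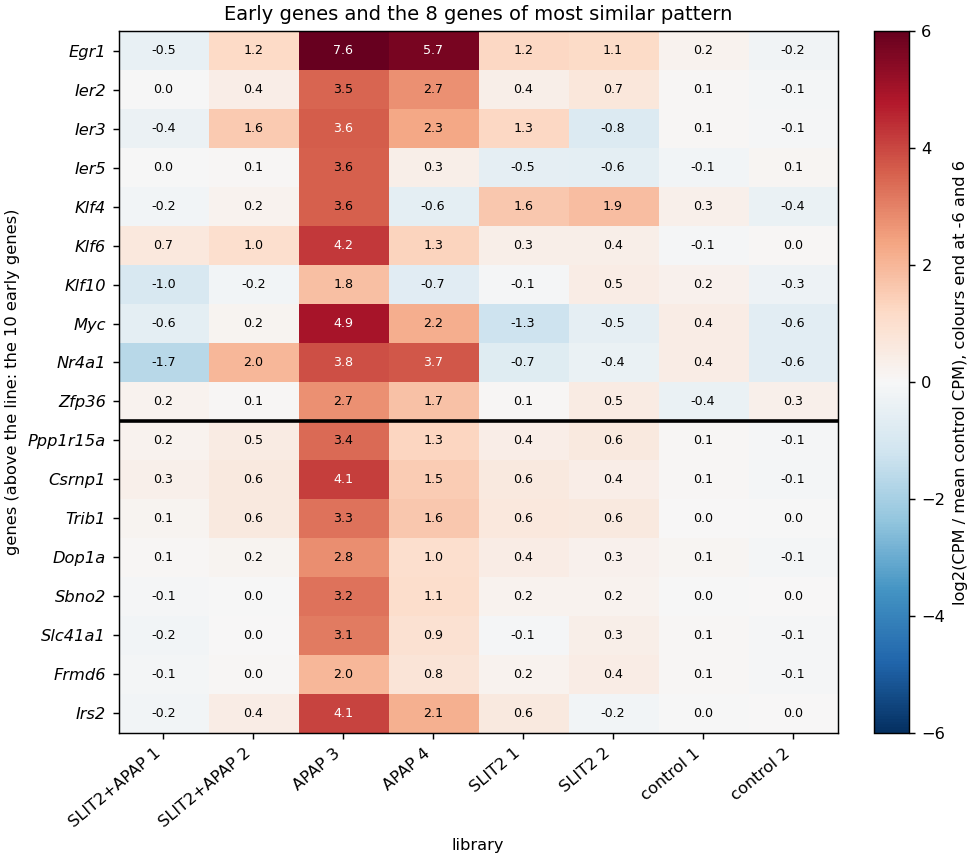
Heat map of the 10 members and the 8 genes most like their mean, as the log2 ratio of CPM to the mean control CPM, 1 column per library. Rows are genes, and colour and printed number give the log2 ratio. APAP 3 is the strongest column, and in APAP 4 the rows of Egr1 and Nr4a1 stay high while those of Klf4 and Klf10 lie below the control mean.

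Related lists were read beside the members. In APAP against control, 4 of 11 AP-1 and ATF genes rose (Fos 5.44 ± 0.60, Jun 5.46 ± 0.73, Junb 3.16 ± 0.48 and Jund 1.94 ± 0.31 on the log2 scale, edgeR adjusted p = 0.02723, 0.03274, 0.04201 and 0.04327), with a median of 5.11 over the list. Of 23 other early response genes, Btg2, an antiproliferative gene, was the only one called (4.65 ± 0.33, edgeR adjusted p = 0.006499), with a list median of 2.05. None of the 16 tested EGR, KLF, NR4A and ZFP36 relatives of the members was called (median 0.79), nor of 22 genes that carry signals through ERK to SRF (0.01), 15 genes of ERK and MAPK feedback (0.83), 12 MYC partners (0.19) or 20 MYC target genes (0.65). Of 14 tested messages known to be destabilised by ZFP36, which include Ier3, Myc and Zfp36 itself, only Zfp36 was called (median 2.60). Without the SLIT2 libraries, without either of them, or with only the 4 libraries compared, none of the AP-1 and ATF genes or of the other early response genes was called. With all 8 libraries, 0.332% of genes tested were called higher. Without the SLIT2 libraries, or with only the 4 libraries compared, 0 of all genes were called. The AP-1 and ATF count fell without either SLIT2+APAP or either control library. Without APAP 4 every list named here gained calls, also those with no call above. The number of all genes called rose in that fit too, so these gains cannot be read as particular to the lists.

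In SLIT2+APAP against APAP, 7 of 11 AP-1 and ATF genes fell (Fos, Jun, Junb, Jund, Fosb, Atf3 and Maff, list median -4.87). Over all genes tested, 7.64% were called lower. Jun stood at -4.99 ± 0.71 and Fos at -4.87 ± 0.58 on the log2 scale (edgeR adjusted p = 0.008448 and 0.005778). Of the 23 other early response genes 10 fell (median -1.98), with Btg2 at -4.37 ± 0.32, Rhob, a small GTPase gene, at -1.66 ± 0.29, the clock-linked repressor gene Bhlhe40 at -1.98 ± 0.40 and the pseudokinase gene Trib1 at -2.28 ± 0.48. Among relatives of the members 1 of 16, Klf3, fell (-2.52 ± 0.62, edgeR adjusted p = 0.03536, median -0.23), a call lost without any SLIT2+APAP, SLIT2 or control library. In the list from ERK to SRF 2 of 22 fell (median -0.09). These were Srf itself (-1.30 ± 0.24, edgeR adjusted p = 0.01639) and Crtc2, a coactivator of CREB (-1.16 ± 0.26, edgeR adjusted p = 0.02714). Both calls were lost without either SLIT2+APAP library, and fewer stood without either SLIT2 or either control library. More genes of that list were called without APAP 3 or without APAP 4. The shares of 1 of 16 and 2 of 22 lie close to that of all genes and are no result about these lists. In the feedback list 6 of 15 fell, all of them dual-specificity phosphatase genes (Dusp4, Dusp5, Dusp6, Dusp8, Dusp10 and Dusp16, median -0.98).

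Among MYC target genes in the same comparison, 6 of 20 fell and 1, the cyclin-dependent kinase gene Cdk4, rose, with a list median of -0.99. Over all genes tested, 7.64% were called lower. None of the 20 was called in APAP against control, and a part of Myc in these values was not tested. The lowest adjusted p-values were those of Bop1, a ribosome assembly factor (-1.95 ± 0.27, edgeR adjusted p = 0.007938), Odc1, which starts polyamine synthesis (-1.70 ± 0.26, adjusted p = 0.009672), Ldha, lactate dehydrogenase (-1.83 ± 0.30, adjusted p = 0.01181), and Fbl, fibrillarin (-1.10 ± 0.20, adjusted p = 0.01442). All 4 were also called lower in SLIT2 against control (Bop1 -1.72, Odc1 -2.34, Ldha -4.12 and Fbl -1.21), where 27.6% of genes tested were called lower. In SLIT2+APAP against control, 1.45% of genes tested were called lower. Bop1 and Ldha were also called lower in SLIT2+APAP against control (-1.45 ± 0.27 and -1.54 ± 0.30, adjusted p = 0.04276 and 0.04478), the only called genes of these lists there, and none of the MYC targets was called there once a SLIT2+APAP, SLIT2 or control library was left out, while 4 were called without either APAP library. None of 12 MYC partners was called (median -0.45), though calls appeared without APAP 3 or without APAP 4. In the TGF beta and SMAD response list, Skil (-1.99 ± 0.44, adjusted p = 0.0263), Id3 (-2.10 ± 0.49, adjusted p = 0.03048) and Tgfbr2 (-2.62 ± 0.64, adjusted p = 0.03516) fell. Of the 14 ZFP36 targets the members Myc and Zfp36 fell (median -2.29). Without either SLIT2+APAP library, all or nearly all calls among AP-1 and ATF, other early response, feedback and MYC target genes were lost. Without APAP 4 each of these lists gained calls. The number of all genes called fell and rose in the same fits. Other early response and feedback genes also lost calls without either SLIT2 or either control library. Feedback genes lost calls without APAP 3, and MYC targets without either control library.

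In SLIT2 against control none of the 11 AP-1 and ATF genes was called (median -0.25), whereas 6 of the 16 relatives of the members rose, led by Klf13 (2.32 ± 0.23, edgeR adjusted p = 0.0001847), Nr4a3 (3.88 ± 0.89), Klf5 (3.30 ± 0.77) and Egr2 (3.42 ± 0.83), a share to be read against the 27.3% of genes tested that were called higher. Only 1 relative was called without control 2. In the list from ERK to SRF 2 of 22 rose and 8 fell, among MYC targets 3 of 20 rose and 9 fell, and among other early response genes 6 of 23 rose and 4 fell, where 27.6% of genes tested were called lower. The 10 calls from ERK to SRF became 2 without SLIT2 2, 4 without control 1 and 6 without control 2. The 10 calls among other early response genes became 4 without SLIT2 1, 5 without either SLIT2+APAP library and 3 without SLIT2 2 or either control library.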

How the data were processed

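The authors deposited whole-number read counts per Ensembl gene for 8 liver libraries, not scaled, and all columns were used. Libraries were made from total RNA with the MGIEasy RNA Directional Library Prep Kit, per the labels' protocols. STAR 2.5.4, Cufflinks, Cuffdiff 2.2.1 and mm10 are named in the submitters' processing notes, without their roles. How reads were counted, with which annotation release and strand setting, is not given in the sources used here, so reads shared by overlapping genes may be split or lost. Symbols came from GENCODE on GRCm38 and matched 22341 of 23006 identifiers (97.1%).

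Tests were run in R 4.3.3 with edgeR 4.0.16 (filterByExpr over 4 groups, TMM, robust quasi-likelihood fit with legacy = FALSE, 1 mean per group, all 8 libraries, 4 residual degrees of freedom), with Benjamini-Hochberg adjustment over 16876 genes in each comparison. The smallest two-sided p of an exact permutation test on 2 against 2 libraries is 0.333. Alternatives were DESeq2 1.42.0, its size factors in edgeR, library totals, no filter, GC offsets, no mitochondrially encoded genes, no SLIT2 libraries, a fit to the 4 libraries of a comparison, leaving out each library, and a replicate block. A lone remaining library of a group took its spread from the other groups.

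The members and the 9 gene lists were chosen with earlier results of these data known. Named genes are the 10 members, up to 4 called genes of each list with the smallest p (all where 5 or fewer), and the 8 genes most like the members' mean. Further list genes are named to spell out a count, and some values of the TGF beta and SMAD response list are not reported here. Total counts ran from 60.8 to 101 M (M for 1000000), and every member had at least 12 counts in each library. Reads carry no molecular identifiers, so counts are not independent molecules.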

Additional observations from a re-analysis of the deposited data

Results flagged for a closer look

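Among the members, the AP-1 and ATF genes and the relatives of the members, 11 genes were called by the edgeR interaction test, which is what brought them here. That test called 4867 of 16876 genes, 13.3% of those tested in the negative direction. It also called genes of the other lists, which were not flagged. Among the members, the difference of the 2 log2 fold changes was -7.51 for Egr1, -3.49 for Ier2 and -2.46 for Zfp36, with adjusted p-values of 0.004255, 0.003619 and 0.0147. Among AP-1 genes it was -4.93 for Jun, -3.87 for Fos, -3.65 for Junb and -1.68 for Jund, the 4 called of 11 in that list. Fewer of the list were called without SLIT2 2, SLIT2+APAP 1 or control 1. More were called without APAP 4, where the number of all genes called rose too. Each of these 7 genes was lower in both SLIT2+APAP libraries than in both APAP libraries, as were 29.4% of genes tested. That difference is a part of the interaction by which they were chosen, so it adds no support.

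Among relatives of the members it was -2.39 for Klf13, -4.62 for Egr2, -5.40 for Nr4a3 and -4.27 for Klf5. They were the 4 called of 16 tested relatives, to be read against the share of all genes given above. Fewer of the list were called without any SLIT2+APAP, SLIT2 or control library. More were called without APAP 4, where the number of all genes called rose too. These 4 rose in SLIT2 against control, and 3 of them rest on few reads. Egr2 had 8 and 26 counts in SLIT2+APAP, 48 and 29 in APAP, 24 and 22 in SLIT2, and 4 and 2 in control. Nr4a3 had 6 and 18 counts in SLIT2+APAP, 57 and 9 in APAP, 131 and 78 in SLIT2, and 12 and 8 in control. Klf5 had 8 and 13 counts in SLIT2+APAP, 16 and 27 in APAP, 65 and 14 in SLIT2, and 6 and 5 in control.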

How the results depend on the processing

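Of 390 member log2 fold changes under settings that keep every library of the groups compared, 4 changed sign, all of them in SLIT2+APAP against control and none of them called. Ier5 was -0.0084 with DESeq2 and -0.007 with DESeq2 size factors in edgeR, Klf4 was -0.0026 with DESeq2, and Myc was 0.20 with library totals only. Library totals moved the median of all genes by 0.12 in APAP against control and in SLIT2 against control, by 0.18 in SLIT2+APAP against APAP and by 0.30 in SLIT2+APAP against control. The share of called genes that were higher was 42.1%, 45.1% and 33.2% in APAP against control, SLIT2+APAP against APAP and SLIT2+APAP against control, and 61.4%, 61.0% and 68.5% with library totals. In APAP against control, where 133 genes were called, DESeq2 called 1836 genes and 9 members, library totals 236 genes (Myc passing too, adjusted p = 0.04901), no filter 205, GC offsets 72 (Zfp36 missing the threshold, adjusted p = 0.06164), and 0 genes and 0 members were called without the SLIT2 libraries (3908 genes at an unadjusted p under 0.05) or with only the 4 libraries compared (2654 genes). In SLIT2+APAP against APAP (2351 genes) DESeq2 called 3532 genes and 9 members, and only the 4 libraries 1 gene and 0 members. In SLIT2+APAP against control (365 genes) DESeq2 called 1455, only the 4 libraries 4246 genes and 1 member, and 3 genes were called without the SLIT2 libraries. SLIT2 against control (9266 genes) gave 10570 genes and 3 members with only the 4 libraries. In the interaction (4867 genes) DESeq2 gave 5671 genes and 7 members. Deviations of same-numbered libraries correlated at 0.0747, -0.0706 and -0.0147 in SLIT2 with control, SLIT2+APAP with control and SLIT2+APAP with SLIT2. Over all genes, same-numbered libraries thus did not deviate together. With 2 libraries per group this cannot exclude a pairing that acts on some genes only. The fit with the replicate block left out the libraries APAP 3 and APAP 4. It called 2 members (Ier2 and Klf4) of 11062 genes in SLIT2 against control and 1 (Klf6) of 2494 genes in SLIT2+APAP against control. What the block did and what the missing APAP libraries did cannot be told apart there. APAP libraries share no number with the others, so other comparisons had no block. The cause of these shifts was not tested.

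With each library left out in turn, genes called ran from 0 to 5181 in APAP against control, 6272 to 11672 in SLIT2 against control, 21 to 6133 in SLIT2+APAP against APAP, 2 to 2558 in SLIT2+APAP against control and 1002 to 8303 in the interaction, and members from 0 to 9, 0 to 2, 0 to 9, 0 to 1 and 2 to 8. The members whose log2 fold change took both signs over these fits had the following ranges. In APAP against control Klf4 ran from -0.56 to 3.56 and Klf10 from -0.68 to 1.80, negative without APAP 3. In SLIT2+APAP against APAP Klf4 ran from -3.52 to 0.60 and Klf10 from -2.32 to 0.16, positive without APAP 3. In the interaction Ier5 ran from -2.92 to 0.28, positive without APAP 3. In SLIT2 against control Ier3 ran from -0.85 (without SLIT2 1) to 1.29, Klf10 from -0.03 (without SLIT2 2) to 0.47, Nr4a1 from -0.93 to 0.06 (without control 1) and Zfp36 from -0.05 (without control 1) to 0.75. In SLIT2+APAP against control Egr1 ran from -0.46 to 1.2, Ier2 from -0.0095 to 0.42, Ier3 from -0.36 to 1.59 and Nr4a1 from -1.66 to 1.97, each negative without SLIT2+APAP 2. There Ier5 ran from -0.11 to 0.23 (-0.02 without SLIT2+APAP 2, -0.11 without control 1), Klf4 from -0.22 to 0.43 (-0.16 without SLIT2+APAP 2, -0.22 without control 2), Myc from -0.57 to 0.49 (0.19 without SLIT2+APAP 1, 0.49 without control 1) and Zfp36 from -0.15 (without control 1) to 0.61. None of these values belongs to a comparison in which that member was called with all 8 libraries.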
